A study of Homo sapiens with 24 samples.

Results

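Of the 30322 sites bound by S100A8-Flag or S100A9-Flag, 675 (2.23%) had their summit in an exon of a protein-coding gene and more than 1500 bp from every transcription start site (TSS) of a protein-coding or lncRNA transcript. These exon sites were chosen by rule. The rule used the measured −log10 q values of the peaks, since a peak counted when this value was at least 7 (q at most 1e-07) and a site needed peaks in at least 2 replicates of a condition. It also used the place of the summit, which is that of the peak with the lowest q value, against the longest transcript of each gene in GENCODE 44 on hg19. Coding exons held 313 of the summits (46.4%), 3' untranslated regions (3' UTRs) held 351 (52.0%), and 5' UTRs held 11 (1.63%). Of the other union sites, 12307 lay within 1500 bp of a TSS, 6851 in introns, and 10489 outside protein-coding genes. The member nearest to a TSS lay 1521 bp from it, and 22 members lay between 1501 and 1750 bp. Just inside the limit, 29 further exon summits at 1251 to 1500 bp were left out, among 2153 exon summits within 1500 bp.

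The cells were MCF-10A–ER-Src, a nontransformed human breast epithelial line with an introduced fusion of v-Src and the ligand-binding domain of the estrogen receptor. They also stably expressed S100A8 or S100A9 with a C-terminal Flag tag from a retroviral cDNA, and all groups shared the ER-Src fusion. Treatment was 1 μM 4-hydroxytamoxifen (TAM), which activates the fusion, or ethanol vehicle (EtOH), each for 24 hours, and Flag ChIP followed dual cross-linking. The 11 peak lists used comprise 5 libraries of S100A8-Flag (2 EtOH and 3 TAM replicates) and 6 of S100A9-Flag (3 replicates of each treatment). The labels call the replicates biological. At q at most 1e-07 the lists held 1853 to 4609 peaks in EtOH and 21518 to 40735 in TAM. They give no read numbers, so that the depth is unknown, and a lower depth in EtOH cannot be told apart from less binding. The 24 samples of the series include no Flag ChIP of cells with an untagged protein.

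S100A8 and S100A9 are small calcium-binding proteins that pair as calprotectin and are best known as secreted signals in inflammation. They have no conventional DNA binding domain, and a ChIP signal therefore marks chromatin where they lie close to other proteins. Enhancers and insulators can lie inside exons, and the bases of such an exon then carry both a message and a binding site. AP-1, a dimer of JUN and FOS proteins, is a common factor of enhancers in epithelial cells, and CTCF is the zinc finger protein of insulators and loop anchors.

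The following 30-base stretches of hg19 show what lay under exon summits. They were chosen because their sites were called in the most libraries among coding exon sites with the consensus within 50 bp of the summit. The AP-1 consensus TGACTCA or TGAGTCA stands in capitals in the first 4, and the CTCF consensus in the last 4. The exon given is that of the summit. In 6 of the 8 the marked letters lie wholly in this exon, but in LGR6 and CXXC1 they lie wholly in the adjoining intron.
LGR6 (summit in exon 4 of 18, marked letters in the intron, chr1:202205112-202205141, plus strand): tgcagtcgctgTGAGTCAttagagggctgg
SP8 (exon 2 of 2, chr7:20824592-20824621, plus strand): tgaaggccgagTGACTCAggcccgagtaat
CXXC1 (summit in exon 8 of 14, marked letters in the intron, chr18:47810729-47810758, plus strand): cctctcaggaaTGACTCActtggctgccag
TRAF3IP2 (exon 2 of 9, chr6:111912811-111912840, plus strand): tctgatttgtcTGAGTCAtggccagtgtca
AHSG (exon 4 of 7, chr3:186335003-186335032, minus strand): tcagcggggCCAGCAGGGGGCagtcttggc
FLOT1 (exon 9 of 13, chr6:30698795-30698824, minus strand): ggagcgggcCCAGCAGGTGGCagtgcagga
MAST4 (exon 29 of 29, chr5:66462139-66462168, plus strand): ctttatgctCCAGCAGAGGGCgacaagctc
ACACB (exon 50 of 53, chr12:109702110-109702139, plus strand): ccccatctaCCACCAGGTGGCggtgcagtt

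In these 8 sites the center of the consensus lay 9 to 39 bp from the summit. LGR6 encodes a receptor for R-spondins, SP8 a zinc finger transcription factor, CXXC1 a protein that binds unmethylated CpG, and TRAF3IP2 an adaptor of interleukin-17 receptors. AHSG encodes the serum protein fetuin-A, FLOT1 a membrane raft protein, MAST4 a kinase, and ACACB an acetyl-CoA carboxylase. The LGR6 site was called, which means that it overlapped a peak past the threshold, in all 6 TAM libraries, with a fold enrichment over input of 12.3, 7.31, and 8.04 for S100A8-Flag and 10.3, 10.1, and 10.5 for S100A9-Flag. A single EtOH library called it, with S100A8-Flag, at 8.21. At the FLOT1 site the 6 TAM libraries gave 9.02, 7.96, and 8.79 for S100A8-Flag and 8.46, 15.1, and 11.2 for S100A9-Flag, and 1 EtOH library of S100A9-Flag gave 9.91. TRAF3IP2 was called in all 6 TAM libraries (6.40 to 13.0) and in no EtOH library, and MAST4 in 3 EtOH and 4 TAM libraries (8.17 to 13.4). Fold enrichment is the value of the authors' peak caller against the input of the same sample, and it was not tested between libraries.

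Exon bases away from TSSs were occupied more densely than intron bases. The coding exons beyond 1500 bp from every TSS comprise 25.1 Mb and held 12.5 union sites per Mb, and the 3' UTRs comprise 32.4 Mb with 10.8 sites per Mb. Introns had 6.90 and the bases outside genes 6.47 sites per Mb, whereas the bases within 1500 bp of a TSS had 75.2. The 5' UTRs away from TSSs comprise only 0.585 Mb, and their 18.8 sites per Mb rest on 11 sites. Exons together are 2.05% of the bases and held 2.23% of the sites. Among coding exons, those with a coding part of at most 200 bp had 12.6 sites per Mb and those of over 200 to 500 bp had 18.3, compared with 8.60 for over 500 to 1000 bp and 6.15 for over 1000 bp. These densities describe 1 set of merged sites and were not tested. Exon summits lay nearer to a TSS (median 7368 bp) than summits in introns or outside genes (median 15634 bp). The classes were not matched for this distance, and its part in the densities was not tested. The share of each class that unique reads can map to was not examined.

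**Figure D1:**
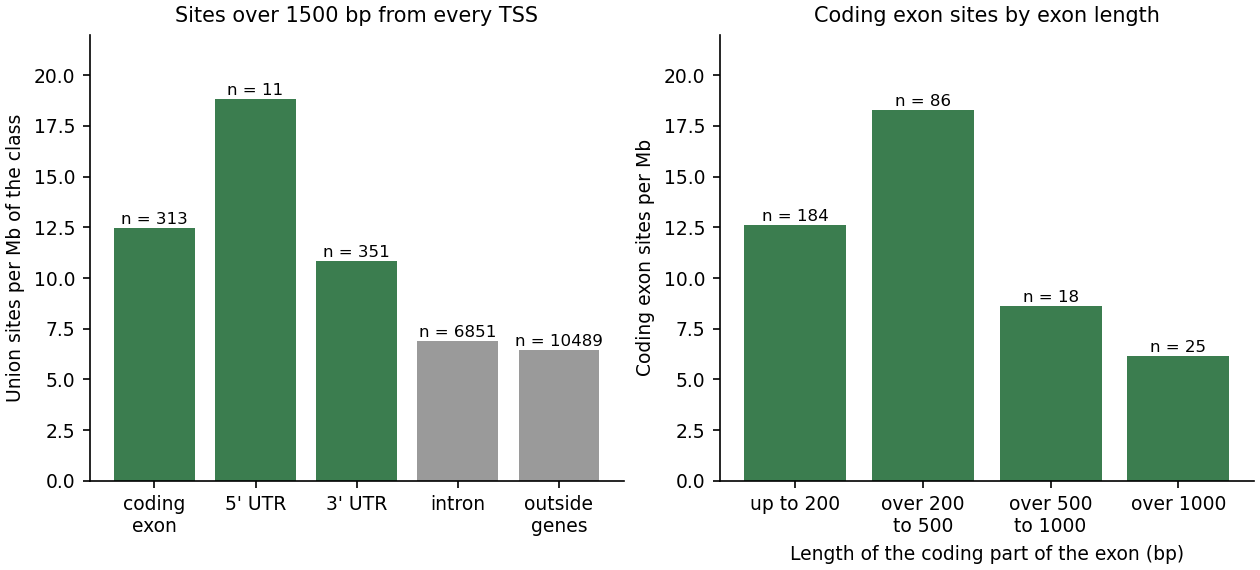
Union sites per Mb of bases in each class more than 1500 bp from every TSS (left) and coding exon sites per Mb by the length of the coding part of the exon (right), with the number of sites above each bar. Coding exons (12.5 per Mb) and 3' UTRs (10.8) stand above introns (6.90), and exons of over 200 to 500 bp have the highest density among coding exons (18.3).

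Coding exon sites mostly overhung their exon, whereas 3' UTR sites lay within it. Of the coding exon sites, 245 lay in internal exons, 66 in the last exon, and 2 in a gene of 1 exon, and none lay in a first exon. The exon had a median length of 190 bp (interquartile range 138 to 525 bp), less than the median site width of 303 bp. The summit lay a median of 52 bp from the nearer exon edge. The rule places the summit inside the exon, so the exon length limits this distance, and it was not compared with random placement. Exons of the transcript, counted together, held a median of 60.9% of the bases of a site. Wholly inside the exon of the summit were 48 sites (15.3%). Along the coding sequence, 72, 111, and 130 summits lay in its first, middle, and last parts of equal length. The distance limit removes exons near the start and thus bears on this order and on the lack of first exons. In 3' UTRs, 334 sites (95.2%) were wholly within the exon, the median distance to the transcript end was 1251 bp, and the 3 equal parts of the UTR held 111, 132, and 108 summits.

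**Figure D2:**
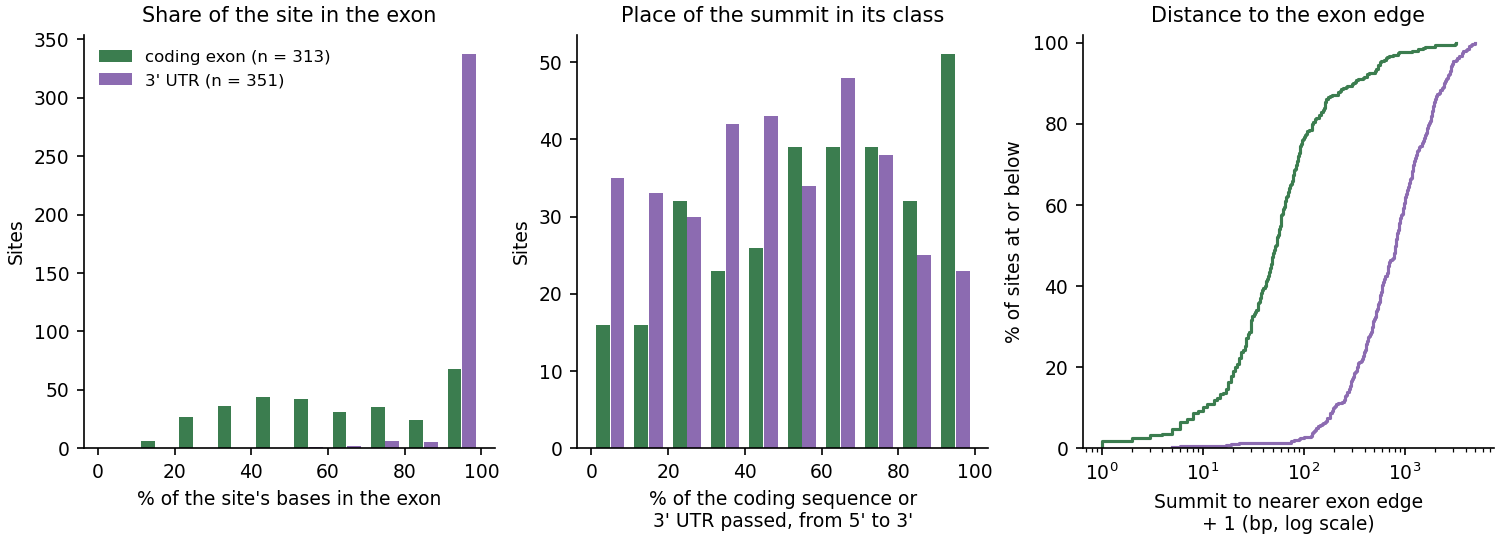
Share of each site's bases in all exons of the transcript (left), place of the summit along the coding sequence or 3' UTR (middle), and cumulative share of sites by the distance from the summit to the nearer exon edge (right, log axis). Most 3' UTR sites lie wholly in the exon. The median coding exon summit is 52 bp from an edge, in exons with a median length of 190 bp.

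A TSS of the listed transcripts lay a median of 7368 bp from an exon summit, compared with 15634 bp for summits in introns or outside genes. Of the coding exon sites, 65 lay within 3000 bp and 136 beyond 10000 bp of a TSS. Starts of other annotated transcript types, such as retained introns or transcripts without a defined coding sequence, lay within 250 bp of 41 coding exon summits (13.1%), 8 summits in 3' UTRs (2.28%), and 2 in 5' UTRs. Among summits in introns or outside genes the share was 2.20% (3.90% in introns and 1.09% outside genes). The share over coding exon bases at large was not examined. The 41 coding exon sites were called in at least 1 EtOH library in 9 cases (21.95%), and the other 272 in 83 cases (30.5%). In 3' UTRs the direction was the reverse, with 4 of the 8 sites near such a start (50%) against 72 of 343 (21.0%). Over all exon sites the counts were 14 of 51 (27.5%) and 157 of 624 (25.2%). For 369 of the 637 genes with an exon site (57.9%), a union site also lay within 1500 bp of a TSS of that gene, compared with 49.6% of all protein-coding genes.

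Windows of 100 bp on either side of exon summits carried AP-1 and CTCF consensus sequences far more often than exons at large. Motifs were searched on both strands without mismatches. They were ETS (CGGAAG), KLF/SP1 (CCCCGCCC), AP-1 (TGACTCA or TGAGTCA), CREB (TGACGTCA), CEBP (TTACNNAA or TTGCNNAA), STAT3 (TTCNNNGAA), and the CTCF consensus. The AP-1 letters were present at 181 exon sites (26.8%), with nearly equal shares in coding exons (26.8%) and 3' UTRs (26.5%). Windows of the same length tiled over the genome had them in 2.57% of coding exon and 2.86% of 3' UTR windows. CTCF letters were present at 138 exon sites (20.4%), compared with 0.841% of coding exon windows and 0.509% of 3' UTR windows. Only 4 sites had both. KLF/SP1 letters were present at 33 coding exon sites (10.5%) and 14 3' UTR sites (3.99%), against 1.29 and 0.858% of the windows. ETS letters were present at 9.90 and 8.55% of the sites, against 5.92 and 2.15% of windows.

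The CEBP and STAT3 sequences did not stand above the windows in this way. The CEBP letters were present at 16.6% of exon sites. By class they were at 14.7% of coding exon and 18.5% of 3' UTR sites, against 16.5 and 22.6% of windows. STAT3 letters were at 6.67% of exon sites (6.39% in coding exons and 7.12% in 3' UTRs), against 6.42 and 6.90% of windows. CREB letters were at only 3 exon sites (0.444%), against 0.131 and 0.0709% of windows. None of the 7 was found at 223 exon sites (33.0%). Exon summits were rich in G and C, with a median of 59.2% in coding exon sites and 55.2% in 3' UTR sites, against 47.3 and 40.8% in the windows of these classes. The part of this difference in the motif shares was not tested. A match is only a run of letters and does not show which factor was present.

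**Figure D3:**
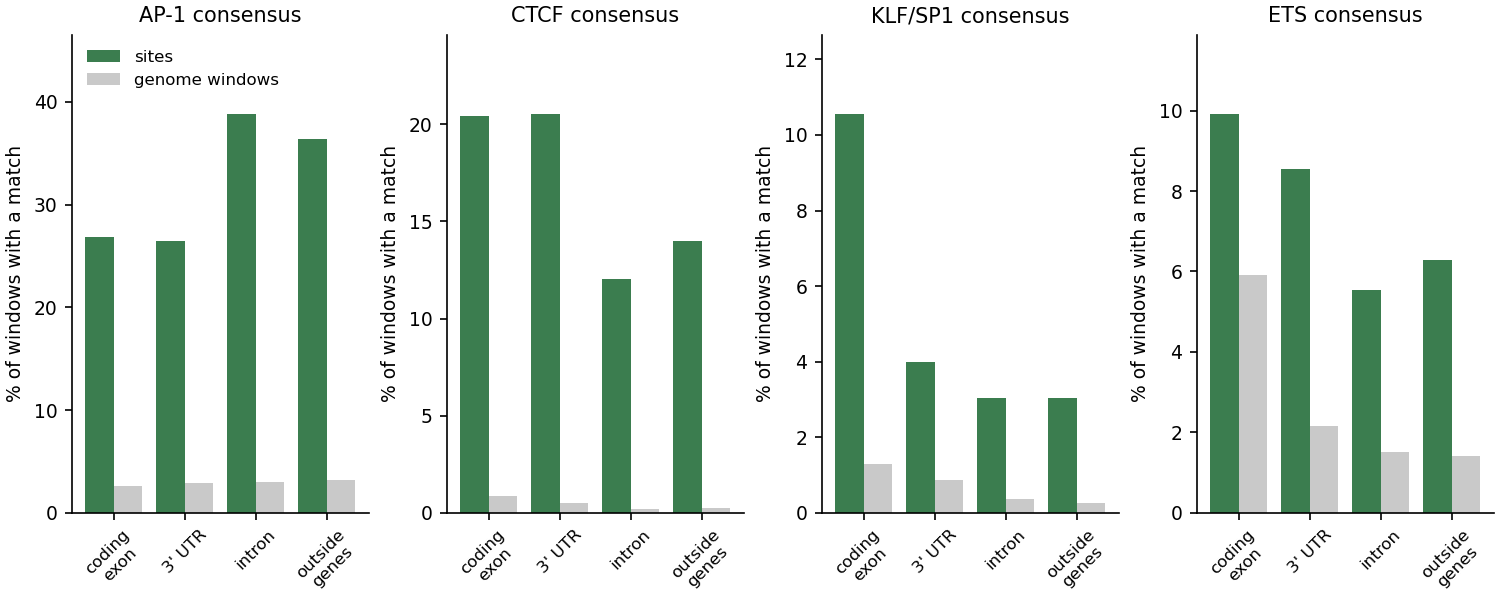
Share of windows that hold a match to the AP-1, CTCF, KLF/SP1, and ETS consensus, at site summits (green) or tiled over the genome (gray), by class. Exon sites have AP-1 in 26.8% (coding exon) and 26.5% (3' UTR), below intron sites (38.8%), and CTCF in 20.4 and 20.5%, above intron sites (12.1%).

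Exon peaks carried AP-1 less often than other peaks away from TSSs in the same library. All peaks past the threshold were used here, also those found in 1 replicate. The AP-1 share of exon peaks was 20.3 and 12.3% with S100A8-Flag in EtOH, 20.1, 26.1, and 23.5% with S100A8-Flag in TAM, 16.7, 10.7, and 14.9% with S100A9-Flag in EtOH, and 27.5, 24.4, and 26.5% with S100A9-Flag in TAM. The peaks in introns or outside genes had 30.04% ± 6.51 (SD, n = 11). The difference was −9.80 ± 3.10 percentage points (SD, n = 11), with the exon peaks lower in 11 of 11 libraries, and an exact sign-flip permutation test over libraries gave p = 0.000977, the smallest that it can give (Benjamini-Hochberg adjusted p over 10 tests = 0.00977). The libraries call many of the same sites, so this p refers to their agreement and not to the spread over sites. GC content differed as well, with a median of 56.7% at exon sites and 52.2% at sites in introns or outside genes. Its part in the AP-1 difference was not tested. CTCF letters were in a larger share of exon peaks than of the other peaks in 10 of 11 libraries, by 3.12 ± 5.31 percentage points (SD, n = 11), with no test made. The exception was S100A9-Flag EtOH replicate 2, with 3.57% of its 28 exon peaks against 15.2% of the others.

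AP-1 letters were in 14.95% ± 3.75 (SD, n = 5) of the exon peaks of EtOH libraries and 24.7% ± 2.68 (SD, n = 6) of those of TAM libraries. EtOH and TAM libraries nearly separated, as the highest EtOH value (20.3%) lay just above the lowest TAM value (20.1%). With treatment permuted within each protein, the difference of 9.49 percentage points had an exact permutation p of 0.02 and an adjusted p of 0.05, which does not pass the threshold of under 0.05. Other peaks away from TSSs also had a lower mean in EtOH, with 23.9% ± 4.01 in EtOH (SD, n = 5) and 35.1% ± 1.89 in TAM (SD, n = 6). The CTCF share of exon peaks was 13.0% ± 5.65 in EtOH (SD, n = 5) and 16.9% ± 3.04 in TAM (SD, n = 6), a difference within the spread of the libraries (exact permutation p = 0.27, adjusted p = 0.386). Among exon sites with AP-1 and no CTCF letters, 35 of 177 (19.8%) were called in EtOH, compared with 39 of 134 (29.1%) with CTCF alone and 96 of 360 (26.7%) with neither. Sites in introns or outside genes had the same order, with 17.6% for AP-1 alone, 26.2% for CTCF alone, and 21.3% for neither. Coding exon sites also had it, with 15.7, 34.9, and 34.3%. In 3' UTR sites AP-1 alone was instead the highest, with 24.4%, against 21.7% for CTCF alone and 20.1% for neither.

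The exon share of all peaks did not differ between EtOH and TAM beyond the spread of the libraries. EtOH libraries had 2.03% ± 0.356 (SD, n = 5), and TAM libraries 2.20% ± 0.0769 (SD, n = 6). The exact permutation test within proteins gave a difference of 0.165 percentage points (p = 0.35, adjusted p = 0.438). S100A9-Flag and S100A8-Flag libraries had 2.11% ± 0.301 (SD, n = 6) and 2.15% ± 0.197 (SD, n = 5), and this difference had an exact permutation p of 0.83 (adjusted p = 0.83). Coding exons had 0.901 and 1.28% of the peaks with S100A8-Flag in EtOH, 1.15, 0.950, and 0.976% in TAM, 1.31, 1.13, and 1.31% with S100A9-Flag in EtOH, and 0.949, 1.05, and 1.10% in TAM. The ranges of the treatments overlap, and the difference of −0.140 percentage points had an exact permutation p of 0.16 (adjusted p = 0.267).

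The 3' UTR share of all peaks was higher in TAM. It was 0.878 and 0.976% with S100A8-Flag in EtOH, 1.12, 1.21, and 1.12% in TAM, 1.00, 0.378, and 0.892% with S100A9-Flag in EtOH, and 1.14, 1.17, and 1.09% in TAM. All 6 TAM libraries lay above all 5 EtOH libraries, and the difference of 0.300 percentage points had the smallest p that the exact permutation test can give (p = 0.01, adjusted p = 0.0333). The share of peaks within 1500 bp of a TSS was 61.8% ± 5.04 in EtOH (SD, n = 5) and 40.3% ± 2.06 in TAM (SD, n = 6), and its part in this difference was not tested. As a share of the peaks away from TSSs, an alternative chosen after these values were seen, the 3' UTR peaks were 2.12% ± 0.538 in EtOH (SD, n = 5) and 1.92% ± 0.117 in TAM (SD, n = 6) (exact permutation p = 0.34, adjusted p = 0.438). With the 1853 lowest q values of each library, the difference turned to −0.0450 percentage points.

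Among the peaks away from TSSs, exons took up less in TAM than in EtOH. The exon share was 4.36 and 5.61% with S100A8-Flag in EtOH, 3.84, 3.64, and 3.58% in TAM, 6.33, 5.05, and 5.32% with S100A9-Flag in EtOH, and 3.57, 3.98, and 3.55% in TAM. The treatments did not overlap. The share fell by 1.58 percentage points over both proteins (exact permutation p = 0.01, the smallest possible, adjusted p = 0.0333). The difference was −1.30 for S100A8-Flag alone (exact permutation p = 0.2, the smallest for 2 against 3 libraries) and −1.87 for S100A9-Flag alone (exact permutation p = 0.1, the smallest for 3 against 3). Coding exons, taken alone in the same way after these values were seen, had 3.15% ± 0.624 in EtOH (SD, n = 5) and 1.72% ± 0.138 in TAM (SD, n = 6), and the difference of −1.34 percentage points had an exact permutation p of 0.01 (adjusted p = 0.0333). The number of peaks past the threshold also differed between the treatments. With the 1853 lowest q values of each library, the difference of the exon share was −2.81 percentage points (exact permutation p = 0.01, adjusted p = 0.0333).

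**Figure D4:**
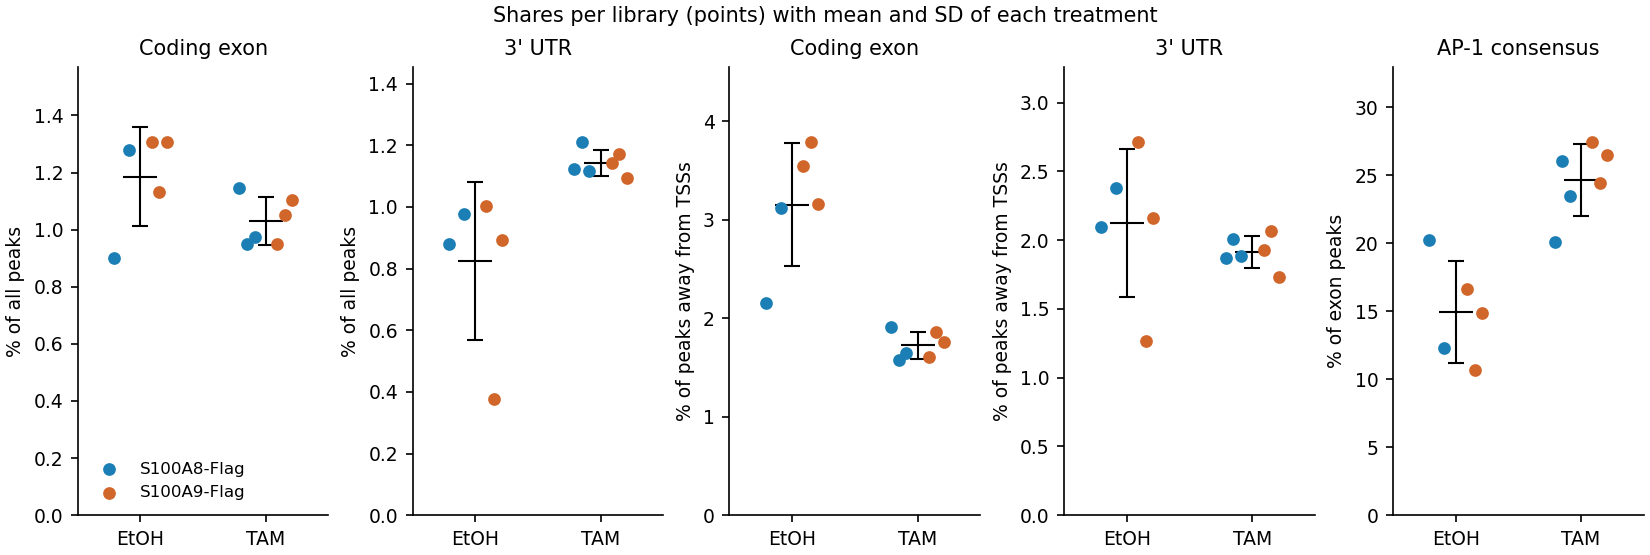
Values of the 11 libraries (blue, S100A8-Flag; orange, S100A9-Flag) with the mean and SD of each treatment: coding exon and 3' UTR peaks as a share of all peaks and of the peaks more than 1500 bp from every TSS, and exon peaks with the AP-1 consensus. The 3' UTR share of all peaks is higher in every TAM library, and the coding exon share of peaks away from TSSs is lower in every TAM library.

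An average EtOH library called 8.15% ± 3.29 (SD, n = 5) of the exon sites and an average TAM library 59.3% ± 12.7 (SD, n = 6). For all union sites the averages were 9.96 and 63.2%, and for those in introns or outside genes 5.76 and 59.3%. The counts were 64 and 77 of the 675 sites with S100A8-Flag in EtOH, 352, 348, and 311 in TAM, 55, 18, and 61 with S100A9-Flag in EtOH, and 411, 426, and 552 in TAM. S100A9-Flag EtOH replicate 2 was the lowest and also has the shortest list, and S100A9-Flag TAM replicate 3 was the highest and has the longest. At least 1 EtOH library called 171 exon sites (25.3%), below the 31.1% of all union sites but above the 20.6% of union sites in introns or outside genes. Coding exon sites were called in EtOH more often (92 sites, 29.4%) than 3' UTR sites (76 sites, 21.7%). All 6 TAM libraries called 67 exon sites (9.93%), against 14.3% of all union sites. Since the rule needs peaks past the threshold, these counts describe the members and carry no test.

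With the proteins weighted equally, a larger share of the TAM than of the EtOH libraries called 657 exon sites (97.3%), near the 98.2% of all union sites. No S100A8-Flag library called 133 exon sites (19.7%, against 15.6% of all union sites), and no S100A9-Flag library called 49 (7.26%, against 5.44%). For sites in introns or outside genes these shares were 19.0 and 6.75%, close to those of exon sites. All 11 libraries called 2 exon sites (0.296%, against 0.346%). Many members rest on few libraries, as 328 (48.6%) were called in 2 or 3, 227 in 4 or 5, 109 in 6 to 8, and 11 in 9 to 11.

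Ranked by fold enrichment among all peaks of a library, exon peaks had a median percentile of 51.2 ± 5.16 (SD, n = 11), and other peaks away from TSSs 46.9 ± 1.62 (SD, n = 11). The difference of 4.33 percentile points, positive in 10 of 11 libraries, had an exact sign-flip permutation p of 0.0264 and an adjusted p of 0.0527, which misses the threshold. It ranged from 2.26 to 15.4 in EtOH and from −5.18 to 3.54 in TAM. Peaks over exons of ESR1 and S100A9 made up 0.943 to 10.7% of the exon peaks in EtOH libraries and 0.189 to 0.739% in TAM libraries. Without them the difference was 1.51 (exact permutation p = 0.547, adjusted p = 0.608), an alternative chosen after these peaks were seen.

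The introduced constructs carry sequence of genes with 4 of the exon sites. Of these, 3 are coding exon sites of ESR1, the gene of estrogen receptor alpha, and 1 is a coding exon site of S100A9. The site over the last exon of ESR1, exon 10, at chr6:152419821-152420142, was 1 of the 2 called in all 11 libraries. Its fold enrichment was 22.4 and 8.66 with S100A8-Flag in EtOH, 11.9, 18.4, and 7.12 in TAM, 20.9, 42.9, and 11.01 with S100A9-Flag in EtOH, and 29.8, 7.39, and 8.42 in TAM. The range of each treatment covers a large part of the other. The summit of this site lies at the capital base of aggggcatccgtggaGgagacggaccaaag (chr6:152419981-152420010, plus strand).

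ESR1 was not called evenly along its coding sequence. Exons 3, 4, and 5, which hold the start of the coding sequence, overlapped no peak in any library, also below the threshold. Exon 6 was called in 8 libraries, exon 7 in 2, exon 8 in 2, exon 9 in 6, and exon 10 in 11. With peaks below the threshold included, these exons overlapped a peak in 11, 3, 5, 7, and 11 libraries. The ligand-binding domain, which the fusion carries, is encoded by the 3' part of the coding sequence, and the labels do not give the exons in the fusion. Coding exons of SRC, the cellular counterpart of v-Src, had no peak past the threshold. Below it, SRC exons 9 and 10 each overlapped a peak in 1 library. Exon 3 of S100A9 was called in 6 of 6 S100A9-Flag libraries, at 21.3, 13.4, and 15.03 in EtOH and 22.6, 16.2, and 14.8 in TAM, and in 1 of 5 S100A8-Flag libraries, at 8.07. Exon 2, which lies too near a TSS to be a member, was called in the same 6 S100A9-Flag libraries (3.77 to 13.3) and in no S100A8-Flag library. Neither coding exon of S100A8 was called in any library, but peaks below the threshold overlapped exon 2 in 3 libraries and exon 3 in 2. Whether the reads came from the introduced copies or from the genes themselves was not tested.

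**Figure D5:**
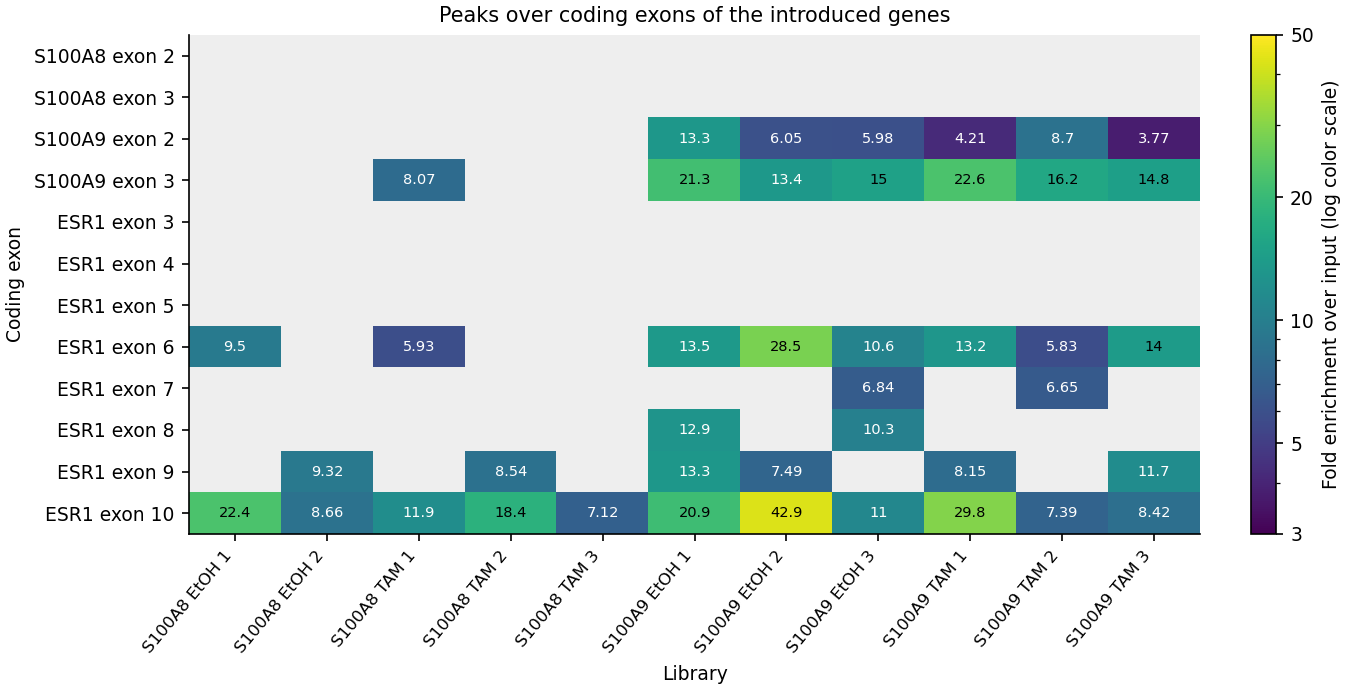
Fold enrichment over input (color, log scale, and printed value) of the peak past the threshold over each coding exon of S100A8, S100A9, and ESR1 in each library, with gray for no such peak. The last exon of ESR1 is called in all 11 libraries (7.12 to 42.9), and S100A9 exons are called in all 6 S100A9-Flag libraries.

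The other site called in all 11 libraries covers exon 2 of KIF26B, which encodes a kinesin family protein (chr1:245318958-245320126). Its fold enrichment was 11.7 and 6.53 with S100A8-Flag in EtOH, 10.97, 16.7, and 10.2 in TAM, 9.84, 11.2, and 11.6 with S100A9-Flag in EtOH, and 10.6, 17.5, and 15.6 in TAM. EtOH and TAM values overlap. At 1651 bp from a TSS this site is close to the limit, and it extends 1169 bp with 34.4% of its bases in the exon. The site in the last exon of P2RX7, an ATP-gated ion channel, was called in 4 EtOH libraries (8.03, 13.5, 11.3, and 7.24) and 5 TAM libraries (8.08 to 12.7). In exon 8 of RIN2, a regulator of Rab5, the site was called in 3 EtOH libraries (7.36, 8.56, and 11.8) and in all 6 TAM libraries (5.49 to 18.5). The site in exon 15 of KIFC2, a kinesin, was called in 3 EtOH and 6 TAM libraries (7.35 to 14.7). In each of these 3 sites the range of EtOH lies inside or overlaps the range of TAM.

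Among 3' UTR sites, that of ZBTB7B, a zinc finger transcription factor, was called most, in 10 libraries (chr1:154989605-154990373). The values were 10.4 and 12.5 with S100A8-Flag in EtOH, 15.9, 19.8, and 15.9 in TAM, 7.88 and 13.8 in 2 of 3 S100A9-Flag libraries in EtOH, and 10.3, 11.5, and 15.1 in TAM. Its summit lies 3.5 bp from the center of a KLF/SP1 match. The sites called in 9 libraries include those of IL16, which encodes the precursor of interleukin-16, STOML1, a stomatin-like protein, RNF40, a ubiquitin ligase of histone H2B, and RPS19BP1, a protein that binds ribosomal protein S19. The IL16 values reached from 7.57 to 20.05 and those of RPS19BP1 from 5.79 to 20.7. IL16 and STOML1 carry AP-1 letters close to the summit, here in capitals together with the KLF/SP1 match of ZBTB7B.
ZBTB7B (chr1:154989992-154990021, plus strand): ccccatctcctCCCCGCCCaggtgcgagcc
IL16 (chr15:81605547-81605576, plus strand): gagctcctcgaTGAGTCAcgggagttcttt
STOML1 (chr15:74275677-74275706, plus strand): gagctggcagaTGAGTCAgaaatctttggg

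The 11 sites in 5' UTRs were called in 2 to 7 libraries, and 8 of them lay in internal exons. The site in NDUFC1, a subunit of mitochondrial complex I, was called in 2 EtOH libraries (11.6 and 8.52) and 5 TAM libraries (7.15 to 16.7), and another annotated transcript starts 34 bp from its summit. A CTCF match lies 1.5 bp from that summit. In ANXA2, a calcium-dependent phospholipid-binding protein, the site was called in 1 EtOH library (7.05) and all 6 TAM libraries (6.46 to 10.4). In PTP4A1, a protein tyrosine phosphatase, it was called in no EtOH library and in all 6 TAM libraries (5.58 to 12.2), and an AP-1 match lies 19 bp from its summit. The number of 5' UTR sites depends on which TSSs are listed, and it was 170 when 1 TSS was used per gene.

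Only 3 exon sites (0.444%) were called in no TAM library, against 0.0923% of all union sites. The first is exon 8 of ESR1, called in 2 S100A9-Flag libraries in EtOH (12.9 and 10.3). The others are in the 3' UTR of PADI1, a peptidylarginine deiminase (9.01 and 11.6 in the 2 S100A8-Flag libraries in EtOH), and of ISLR2, a leucine-rich repeat membrane protein (9.34 and 7.52 with S100A8-Flag and 8.08 with S100A9-Flag in EtOH). Other sites were called with 1 protein alone. The site in exon 17 of ANKS1A, an ankyrin repeat protein, was called in all 5 S100A8-Flag libraries, at 7.37 and 7.91 in EtOH and 8.29, 8.31, and 9.77 in TAM, and in none of 6 S100A9-Flag libraries. That of GAS6, a ligand of the AXL kinase, was called in 4 S100A8-Flag libraries (7.22 to 10.1), and that of METTL7A in 3 (9.39 to 10.3). The sites called in the 3 S100A9-Flag TAM libraries alone include the 3' UTR of PRDM12, a PR domain zinc finger protein (12.2, 10.6, and 9.30), and the last exon of FIGNL1, an AAA ATPase (9.27, 8.70, and 13.3). The sites were picked for this pattern, and it was not tested.

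The 675 sites fell in 637 genes, 3.23% of the 19748 protein-coding genes. Most genes had 1 site (604), 28 had 2, and 5 had 3. The last are CELSR2, an adhesion receptor of the cadherin family, CHRM3, a muscarinic acetylcholine receptor, ESR1, LRP1, a large endocytic receptor, and TRUB2, a pseudouridine synthase. The LRP1 sites are in coding exons 16, 24, and 25 of 89, and that over exon 24 was called in 3 EtOH and 5 TAM libraries (7.02 to 13.6) and has a CTCF match. The 3 TRUB2 sites and the 3 CHRM3 sites are in 1 long 3' UTR each. The CHRM3 site nearest to the stop codon was called in 9 libraries at 4.33 to 11.01, a low rank in those libraries, with a mean percentile of 30.2.

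Gene groups were described by how many of their genes had an exon site, beside 3.23% of all protein-coding genes. Of 18 genes of NF-κB, interleukin-6, and STAT3 signaling, 3 (16.7%) had a site. The site over the last coding exon of IL6, the cytokine gene, was called in no EtOH library and in 5 TAM libraries (5.55 to 8.11). In NFKB2, which encodes the p100 precursor, a site over exon 14 was called in 2 EtOH libraries (18.6 and 9.61) and 5 TAM libraries (7.36 to 10.5), and a transcript of another type starts 9 bp from its summit. The STAT3 site, in the 3' UTR of this transcription factor gene, was called in the 3 S100A9-Flag TAM libraries (8.73, 8.20, and 13.9) and has AP-1 letters within 50 bp of the summit. It was named after its values were seen. Among 15 laminin, integrin, and hemidesmosome genes 1 (6.67%) had a site, LAMA3, called in 1 EtOH and 3 TAM libraries (7.74 to 12.6). Of 16 genes of EGF receptor ligands and ERK feedback 1 (6.25%) had a site, DUSP1, a MAP kinase phosphatase.

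No exon site was found in the 11 AP-1 subunit genes, the 20 desmosome and large cytoskeletal genes, or the 55 keratin genes. Of these, 9 AP-1 genes, 18 desmosome and cytoskeletal genes, and 8 keratin genes had a union site within 1500 bp of a TSS. Collagen genes had 2 among 44 (4.55%), ZNF genes 8 among 508 (1.57%), clustered protocadherin genes 1 among 53 (1.89%), and olfactory receptor genes 2 among 390 (0.513%). The S100 genes had 1 among 20 (5%), which is S100A9. Of all protein-coding genes, 3.23% had an exon site and 49.6% had a union site within 1500 bp of a TSS. These counts per group are small, and no group was tested against other genes.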

How the data were processed

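The study measured binding of S100A8-Flag and S100A9-Flag by ChIP-seq. Per the labels and methods, the authors mapped reads with Bowtie2 (hg19), used those with a unique position, and ran MACS2 on every library separately, with the sample's own input as control. Tool versions are not given in the sources used here. In the deposited lists, fold enrichment is the ratio of a library's own signal to its input, and −log10 p and −log10 q are the values of the authors' MACS2. The deposited score is 10 times −log10 q as a whole number, and summits are offsets in bp from peak starts. The lists reach q = 0.05, and a filter on raw reads in the study's methods could not be applied to them. The depth is unknown, so no interval is given. Pol II and input libraries were not analysed here, and no untagged Flag control is among the samples.

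Peaks with −log10 q of at least 7 on chromosomes 1 to 22 and X were merged by 1 bp within each of the 4 conditions, kept with at least 2 replicates, and merged over conditions. The longest transcript of each protein-coding gene is that with the most exon bases in GENCODE 44 lifted to GRCh37, whose coordinates are those of hg19. All printed sequences are 30 bases of this reference. Motif windows reached 100 bp on each side of a summit, and tiles of the same length gave the genome shares. Members and gene lists were chosen with earlier results of these data known.

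Each of 10 tests used 1 value per library: exact two-sided permutation of treatment within proteins (or of protein within treatments, 200 arrangements each), or exact sign flips over 11 libraries (2048 arrangements). The p-values were adjusted together by the Benjamini-Hochberg method, with a threshold of 0.05. Sites named in the text are those of the construct genes, those called in the most libraries of each class, those no TAM library called, those called with 1 protein alone, genes with the most sites, up to 2 sites per gene list (a further one, of STAT3, was named after its values were seen), and coding exon sites with AP-1 or CTCF letters within 50 bp. A result that this rule names is not reported here. Alternatives changed the q threshold, TSS distance and set, transcript choice, replicate rule, peak number, ranking, motif window, and libraries. The scripts were tested on simulated data. Python 3.11.15, NumPy 2.4.6, pandas 2.3.3, SciPy 1.17.1, pysam 0.24.0, and matplotlib 3.10.9 were used.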

Additional observations from a re-analysis of the deposited data

Results flagged for a closer look

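The difference between TAM and EtOH in the CTCF share of exon peaks was −3.08 percentage points with S100A8-Flag and 9.34 with S100A9-Flag. The effects differed by 12.4 percentage points, with an exact permutation p of 0.01, the smallest possible. The adjusted p of 0.07 over 7 such comparisons misses the threshold. Treatment was permuted within each protein, so that this p refers to no effect of TAM in either protein. Whether the effects are equal was not tested. The shares were 17.7 and 17.0% with S100A8-Flag in EtOH, 13.3, 15.5, and 14.04% in TAM, 13.1, 3.57, and 13.9% with S100A9-Flag in EtOH, and 18.7, 20.7, and 19.1% in TAM. All 3 S100A8-Flag TAM libraries lay below their EtOH libraries, and all 3 S100A9-Flag TAM libraries above theirs. The 3.57% of S100A9-Flag EtOH replicate 2 rests on only 28 exon peaks.

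The effects of TAM on the 5' UTR share of peaks differed between the proteins by 0.0339 percentage points (−0.0120 with S100A8-Flag and 0.0220 with S100A9-Flag, exact permutation p = 0.02, adjusted p = 0.07). This value rests on 0 to 2 peaks in each EtOH library and 6 to 15 in each TAM library. The other 5 comparisons had exact permutation p-values of 0.45 to 0.82. Here, too, each p refers to no effect of TAM in either protein.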

How the results depend on the processing

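The lower AP-1 share of exon peaks than of other peaks away from TSSs kept its direction and its call in all 21 alternatives, with −10.4 to −9.21 percentage points when a library was left out. The CTCF difference between treatments passed in none of its 22 alternatives (1.48 to 4.05 with a library left out). For the results below, the cause was not tested unless stated.

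The TAM minus EtOH difference of the exon share of all peaks turned to −0.189 at q at most 1e-10, −0.00930 with every deposited peak, −0.366 with a TSS limit of 500 bp, −0.522 with 1 TSS per gene, and −0.625 with the 1853 top peaks of each library. Of these, the value with 1 TSS per gene passed the threshold (adjusted exact permutation p = 0.0167). The difference was 0.0389 to 0.283 with a library left out. The coding exon difference passed at q at most 1e-10 (−0.444), at 500 bp (−0.621), and as a share of the peaks away from TSSs (−1.34), and was −0.235 to −0.0456 with a library left out. The 5' UTR difference turned at 500 bp (−0.00715), with 1 TSS per gene (−0.580), with equal numbers of top peaks (−0.0180), and as a share of peaks away from TSSs (−0.0130). It passed downward with 1 TSS per gene (adjusted exact permutation p = 0.0167) and upward with the exons of every protein-coding transcript (0.0378), and was 0.00267 to 0.00963 with a library left out.

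The 3' UTR difference missed the threshold with every deposited peak (0.156), and turned with equal numbers of top peaks (−0.0450) and as a share of the peaks away from TSSs (−0.227). With a library left out it was 0.205 to 0.361, with adjusted p from 0.0417 to 0.0833 by the exact permutation test, as fewer arrangements remain by construction. The exon share of peaks away from TSSs missed the threshold with every deposited peak (−1.34) and at 5000 bp (−0.728), and was larger, and passed, at q at most 1e-10 (−3.06), at 500 bp (−2.62), with 1 TSS per gene (−3.09), and with equal numbers of top peaks (−2.81). It was −1.89 to −1.27 with a library left out (adjusted exact permutation p 0.0417 to 0.0833, by the same construction). In the exon share of all peaks, the difference between S100A9-Flag and S100A8-Flag turned at q at most 1e-10 (0.211), at 500 bp (0.184), and at 5000 bp (0.0611). It also turned with 1 TSS per gene (0.203), with transcripts chosen by genomic span (0.0146), and with equal numbers of top peaks (0.328). With a library left out it was −0.145 to 0.0992.

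The percentile difference of exon peaks passed at q at most 1e-10 (6.79), at 500 bp (4.26), with 1 TSS per gene (3.61), by genomic span (4.73), and with every protein-coding transcript (4.77). It was 0.207 at 5000 bp (adjusted exact permutation p = 0.951), 2.93 with ranks by −log10 q, and 2.33 as a mean percentile, all missing the threshold, and it turned to −0.682 with every deposited peak. With a library left out it was 3.23 to 5.28, and it passed without S100A8-Flag TAM replicate 3 (adjusted exact permutation p = 0.00977). The AP-1 difference between treatments passed at q at most 1e-10 (13.5), 500 bp (10.3), 5000 bp (12.3), 1 TSS per gene (9.81), genomic span (10.97), every protein-coding transcript (10.3), and equal numbers of top peaks (16.2), and was 7.49 to 11.5 with a library left out.

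Exon sites numbered 373 at q at most 1e-10 (168 coding exon, 7 in 5' UTRs, 198 in 3' UTRs), 1399 with every deposited peak (665, 21, and 713), 426 at 5000 bp (193, 6, and 227), 30 with equal numbers of top peaks (17, 1, and 12), 1749 with at least 1 replicate (857, 24, and 868), and 265 with every replicate (122, 7, and 136). The 5' UTR sites numbered 27 at 500 bp, 170 with 1 TSS per gene, and 19 with every protein-coding transcript. With a library left out there were 491 to 674 exon sites, 224 to 312 in coding exons, 9 to 11 in 5' UTRs, and 258 to 351 in 3' UTRs.

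Libraries with equal replicate numbers were not treated as pairs. The correlations of their deviations from the group means over 6 measures were −0.928 to −0.290 in 5 pairs. The measures depend on each other and each group holds only 2 or 3 libraries. These correlations therefore cannot show whether the replicates were paired. With the replicate block, the 3' UTR difference was 0.323 and that of the exon share of peaks away from TSSs −1.62 (both with an adjusted exact permutation p of 0.219). No block fit can pass, as its 32 arrangements give no p under 0.0625. The lists hold no read numbers, so differences in depth between EtOH and TAM libraries limit every comparison of treatments here.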
